A study of Mus musculus with 18 samples.

Results

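Caveolae are small flask-shaped pits of the plasma membrane, and 7 genes of their coat, their neck and their diaphragm were followed here across 6 groups of cultured mouse cells. The genes were taken by symbol from the 35727 gene IDs of the deposited count table: Cav1, Cav2, Cavin1, Cavin2, Cavin3, Ehd2 and Plvap. All 7 were found, and all 7 were among the 14864 genes with enough counts to be tested.

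Messenger RNA was sequenced from 18 libraries at day 7 of culture, 3 in each group. The groups were lung iECs, native lung endothelial cells (ECs) and lung control fibroblasts, and the same 3 kinds of cell from heart. All cultures grew in EGM2, an endothelial growth medium. The series asked whether iECs take on the endothelial character of their organ. The abbreviation iEC is not expanded in the labels. It commonly means an induced endothelial cell, one made from a cell of another kind, and titles of these libraries read SEG, a term that is not explained. The labels give no strain, age or sex, and no agent or driver of induction. They do not say whether the 3 libraries of a group came from separate animals or cultures, so the p-values reflect only how far these libraries spread, which may be technical.

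Caveolae are abundant in capillary endothelium, above all in the lung, and are also found in fibroblasts, adipocytes and muscle. Caveolin 1, the product of Cav1, is the main structural protein of the pit, and caveolin 2 assembles with it. Cavins form a further coat on the cytoplasmic face: Cavin1 is needed for caveolae to form, and in mice Cavin2 is needed for them in lung endothelium but not in heart endothelium. Ehd2, an ATPase at the neck, holds the pit at the surface. Plvap, which is largely restricted to endothelium, builds the thin diaphragms that close endothelial caveolae, fenestrae and transendothelial channels.

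Libraries held 17747632 to 23775372 estimated counts, and 1 count in the shallowest equals 0.0563 CPM on its own total. CPM is the count relative to library size, and levels below use library sizes scaled by TMM, a correction for differences in composition. Summed levels of 8 endothelial markers averaged 837 CPM in lung iECs, 2659 in lung ECs and 16.6 in lung fibroblasts, and 1027 in heart iECs, 1538 in heart ECs and 214 in heart fibroblasts, with no marker at 0 in any group. The markers were uneven in iECs, from Cldn5 at 0.416 CPM in lung and 0.977 in heart to Cdh5 at 465 and 555. Fibroblast markers were present in every group as well, at a summed 13121 CPM in lung iECs, 6150 in lung ECs and 39401 in lung fibroblasts, and 18010 in heart iECs, 20373 in heart ECs and 29440 in heart fibroblasts. The 6 macrophage markers summed to 2884.5 CPM in lung iECs, 8300 in lung ECs and 1042 in lung fibroblasts, but to 190.8 to 289 in the heart groups. Across all genes, 3 libraries stood apart from the others of their group: lung iEC replicate 3, lung EC replicate 3 and lung fibroblast replicate 1. In bulk RNA, fewer cells of a type and less RNA per cell cannot be told apart.

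Cav1 and Cav2 lie beside each other on the plus strand of chromosome 6, Cav2 at 17281185 to 17289115 and Cav1 at 17306335 to 17341452 (GRCm38, GENCODE M21), with 17219 bases between them. Their promoter windows, from 250 bases before to 50 bases after the start site, are shown because their transcripts moved together, and that of Cavin2 on chromosome 1 because its transcripts did not move with them. The sequences are those of RefSeq on GRCm38.p6, at chr6:17306085-17306384, chr6:17280935-17281234 and chr1:51288876-51289175, all on the plus strand and written 5′ to 3′. Capitals mark matches, on either strand, to short motifs of 4 factor families: AGGAAG (ETS), ACAAT (SOX), GGAATG (TEAD) and TGTTTAC (forkhead). The ETS and TEAD motifs have the letters GGAA in common.
Cav1: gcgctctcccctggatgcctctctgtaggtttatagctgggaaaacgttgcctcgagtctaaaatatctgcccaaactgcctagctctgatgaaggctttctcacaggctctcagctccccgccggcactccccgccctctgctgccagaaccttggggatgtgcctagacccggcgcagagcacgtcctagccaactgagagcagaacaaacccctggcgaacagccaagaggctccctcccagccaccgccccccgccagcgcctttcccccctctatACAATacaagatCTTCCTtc
Cav2: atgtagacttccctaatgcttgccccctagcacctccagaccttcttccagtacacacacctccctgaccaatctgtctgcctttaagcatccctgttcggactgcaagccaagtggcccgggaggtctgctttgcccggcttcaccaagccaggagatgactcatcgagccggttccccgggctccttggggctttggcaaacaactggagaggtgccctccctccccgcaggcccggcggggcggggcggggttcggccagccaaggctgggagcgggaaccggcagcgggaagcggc
Cavin2: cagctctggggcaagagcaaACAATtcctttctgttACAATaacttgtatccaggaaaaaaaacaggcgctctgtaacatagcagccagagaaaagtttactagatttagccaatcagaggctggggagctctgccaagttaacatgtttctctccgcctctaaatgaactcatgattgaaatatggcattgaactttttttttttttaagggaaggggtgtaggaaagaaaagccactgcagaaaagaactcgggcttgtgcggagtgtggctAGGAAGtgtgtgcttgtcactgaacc
The Cav1 window held ACAAT at position 31 and AGGAAG, on the minus strand, at position 43, counted from the start site. The Cav2 window held none of the 4 motifs. The Cavin2 window held ACAAT at positions -230 and -214 and AGGAAG at position 25. Among 32851 promoter windows of the same length, 35.4% held the ETS motif, 31% the SOX motif, 14.7% the TEAD motif and 3.65% the forkhead motif, so that these matches are common and describe the letters alone. Of the other windows looked at, that of Cavin1 held 1 TEAD match at position -247 and that of Ehd2 held none of the 4 motifs. Windows were matched for 5 of the 7 genes. Cav1 and Cavin1 had 2 windows each, and only the window nearest the annotated gene start was searched. The start site of the Cavin1 window lies 270 bases from the annotated gene start.

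Both caveolin genes were highest in iECs. Cav1 (ENSMUSG00000007655) stood at 901, 1092 and 922 CPM in lung iECs, against 275, 214 and 384.5 CPM in lung ECs and 203, 166 and 210 CPM in lung fibroblasts. In heart it stood at 667, 674 and 726 CPM in iECs, against 140, 162 and 168 CPM in ECs and 73.5, 75.4 and 74.4 CPM in fibroblasts. No library of either kind of iEC overlapped a library of any other group, and lung EC replicate 3 was the highest library outside the iECs. Over fibroblasts, Cav1 was 5.03-fold higher in lung iECs (log2 change 2.33 ± 0.159, SE; adjusted p = 1.85e-09) and 9.26-fold higher in heart iECs (3.21 ± 0.166; adjusted p = 4.49e-11; edgeR's quasi-likelihood test with Benjamini-Hochberg adjustment over all tested genes, as for every adjusted p given here). Against native ECs of the same organ, Cav1 was 3.34-fold higher in lung iECs (1.74 ± 0.156) and 4.4-fold higher in heart iECs (2.14 ± 0.158). ECs themselves stood above fibroblasts by a smaller log2 change, of 0.59 ± 0.152 in lung and 1.07 ± 0.155 in heart. The means fell in the order lung iEC, heart iEC, lung EC, lung fibroblast, heart EC and heart fibroblast, and of neighbours in that order only lung fibroblasts and heart ECs overlapped.

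Cav2 (ENSMUSG00000000058) followed Cav1. It stood at 148, 167 and 139 CPM in lung iECs, 88.2, 70.4 and 89.0 CPM in lung ECs and 37.7, 35.5 and 36.3 CPM in lung fibroblasts. Heart iECs had 149.6, 156 and 169 CPM, heart ECs 46.8, 57.6 and 57.8 CPM and heart fibroblasts 30.3, 32.8 and 28.0 CPM. Both kinds of iEC overlapped each other and stood above all other libraries. The log2 change over fibroblasts was 2.05 ± 0.106 in lung iECs (adjusted p = 1.83e-11) and 2.38 ± 0.108 in heart iECs (adjusted p = 2.54e-12). Against ECs it was 0.88 ± 0.102 in lung and 1.55 ± 0.104 in heart, so that lung and heart differed by -0.67 ± 0.144 in how far iECs stood above ECs (lung minus heart, adjusted p = 0.00183). The native lung ECs, at a mean of 82.5 CPM, stood above the heart ECs, at 54.1 CPM (log2 change 0.61 ± 0.103, adjusted p = 7.64e-05), while lung and heart iECs differed by -0.06 ± 0.1 and were not called. Markers of smooth muscle and pericytes, cells that are rich in caveolae, were in part higher in iECs as well. Over fibroblasts 6 of 8 were called higher in each organ, where 25.9% of all tested genes were in lung and 26% in heart. Acta2 was among the 6 (2.13 ± 0.185 in lung and 2.22 ± 0.186 in heart), while Pdgfrb was lower in both (-1.41 ± 0.141 and -1.12 ± 0.139) and Des lower in lung (-2.17 ± 0.291). All 8 were detected in every group, and they summed to 3718 CPM in lung iECs, 1781 in lung ECs and 1576 in lung fibroblasts, and to 1684 in heart iECs, 726 in heart ECs and 1159 in heart fibroblasts. In heart ECs this sum was below that of heart fibroblasts, with Pdgfrb at 374 against 930 CPM. Of the 8 markers, 5 were called higher there and 1 lower, where 24.2% and 23.3% of all tested genes were. The part of these markers in the level of Cav1 and Cav2 was not tested. Adipocyte markers, of another caveola-rich cell, summed to at most 0.401 CPM in any library.

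**Figure D1:**
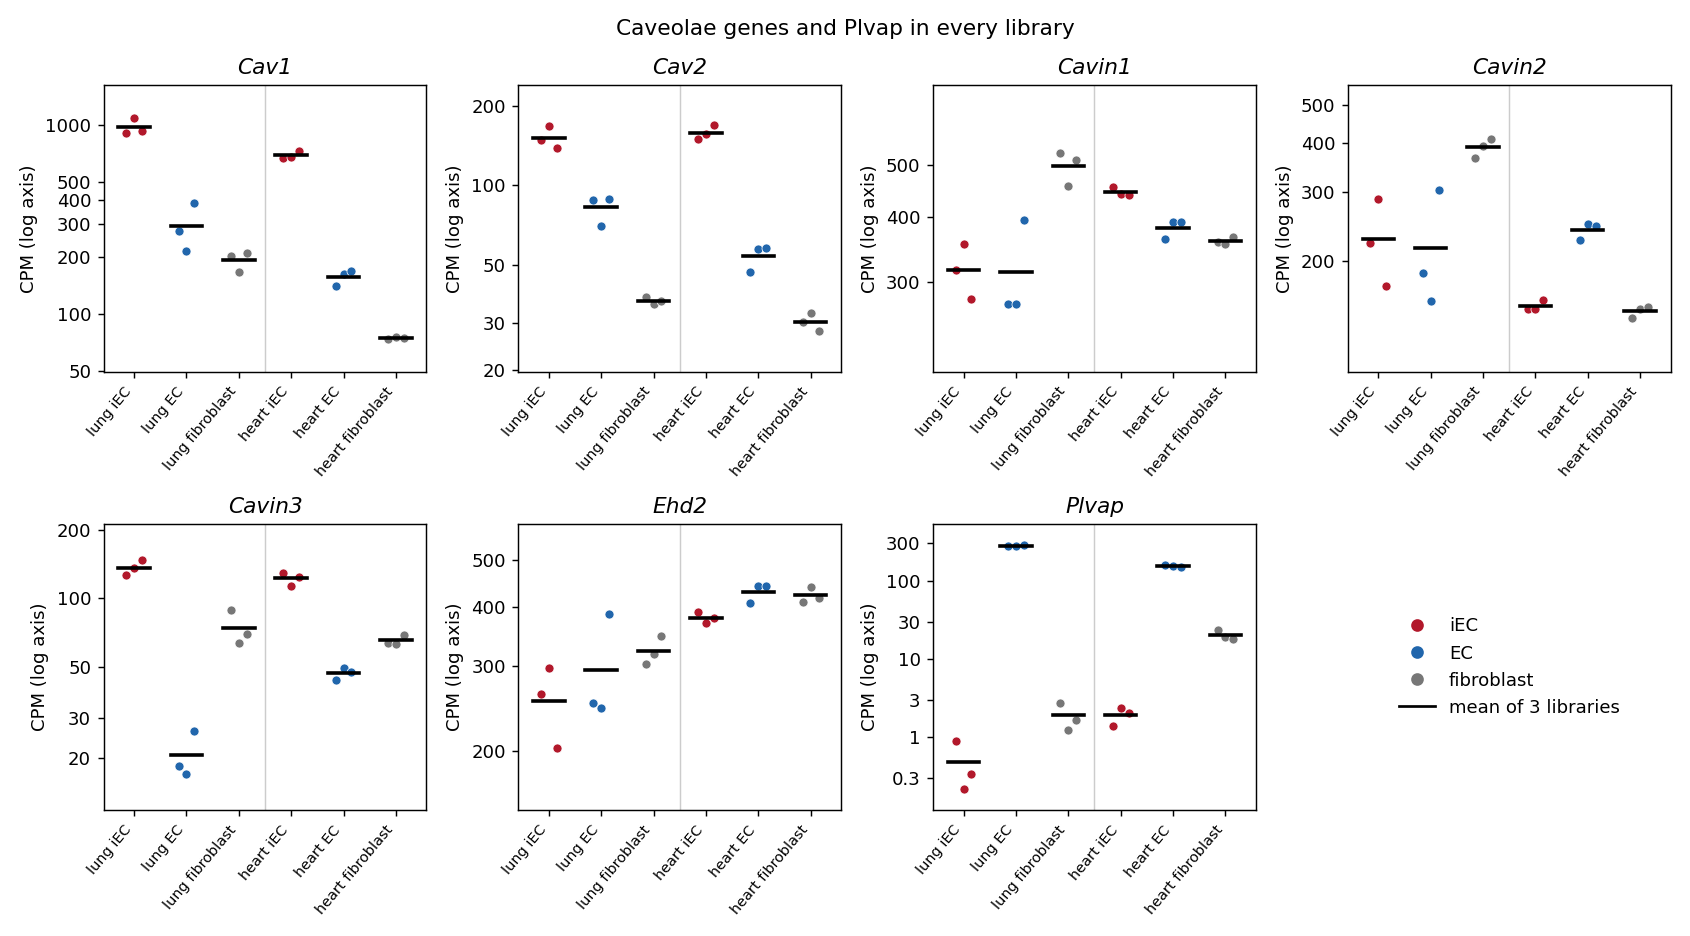
Level of each of the 7 genes in CPM (log axis) in all 18 libraries, with iECs, ECs and fibroblasts of lung on the left of each panel and those of heart on the right. Points are libraries and lines are means of 3. Cav1 and Cav2 are highest in both kinds of iEC, Plvap is highest in both kinds of EC, and Cavin1 and Ehd2 stay within a range of 1.59-fold and 1.69-fold between group means.

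The cavins did not share 1 pattern. Cavin1 (ENSMUSG00000004044; chromosome 11, 100956733 to 100970887, minus strand) had the narrowest range of group means of the 7 genes, 1.59-fold. It stood at 316.5, 355 and 279 CPM in lung iECs, 273, 273 and 394 CPM in lung ECs and 529, 457 and 512.5 CPM in lung fibroblasts. In heart it stood at 455, 442 and 439 CPM in iECs, 362, 391 and 390.0 CPM in ECs and 357, 354 and 365 CPM in fibroblasts. All lung iEC and lung EC libraries were below all lung fibroblast libraries, while heart ECs and heart fibroblasts overlapped. Cavin1 fell in lung iECs by 0.66 ± 0.117 (adjusted p = 0.000127) and in lung ECs by 0.67 ± 0.117 (adjusted p = 7.75e-05) on the log2 scale against lung fibroblasts. In heart iECs it was higher than in heart fibroblasts by 0.31 ± 0.117 (adjusted p = 0.0331), a call that was lost in 6 of the 18 fits that left out 1 library each, with log2 changes of 0.30 to 0.32. The change of iECs over fibroblasts differed between organs by -0.97 ± 0.165 (lung minus heart, adjusted p = 0.000253). Between iECs and ECs, Cavin1 was not called in either organ, at 0.02 ± 0.117 in lung and 0.23 ± 0.116 in heart. The heart groups did not overlap, and the heart change was called in edgeR's fit to the compared groups alone (0.21, adjusted p = 0.00189) and without lung EC replicate 3 (0.23, adjusted p = 0.0253).

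Cavin2 (ENSMUSG00000045954; chromosome 1, 51289126 to 51302960, plus strand) was highest in lung fibroblasts. It stood at 222, 289 and 173 CPM in lung iECs, 187, 158 and 303 CPM in lung ECs and 366, 393 and 411 CPM in lung fibroblasts. Heart iECs had 151, 151 and 159 CPM, heart ECs 226, 249 and 246 CPM and heart fibroblasts 143, 151 and 153 CPM. Lung iECs and lung ECs spread widely and overlapped, whereas in heart the ECs stood above both of the other groups. Against lung fibroblasts, Cavin2 was lower in lung iECs by a log2 change of -0.77 ± 0.194 (adjusted p = 0.00346), and lower in lung ECs by -0.85 ± 0.194 (adjusted p = 0.0014). In heart it was lower in iECs than in ECs (-0.64 ± 0.194, adjusted p = 0.0118) and higher in ECs than in fibroblasts (0.69 ± 0.194, adjusted p = 0.00866), and iECs differed from fibroblasts by 0.04 ± 0.194, which was not called. The change of ECs over fibroblasts thus had opposite signs in the organs, a difference of -1.54 ± 0.274 (lung minus heart, adjusted p = 0.000388). Between lung iECs and lung ECs the log2 change was 0.08 ± 0.193. Without lung EC replicate 3 that change was 0.40 and was called (adjusted p = 0.0276).

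Cavin3 (ENSMUSG00000037060; chromosome 7, 105480083 to 105482300, minus strand), a cavin that binds Cavin1 and caveolin 1, was high in iECs and low in ECs. It stood at 126, 136 and 147 CPM in lung iECs, 18.3, 17.0 and 26.2 CPM in lung ECs and 89.3, 63.8 and 70.1 CPM in lung fibroblasts. Heart iECs had 129.9, 113 and 124 CPM, heart ECs 44.0, 49.5 and 47.5 CPM and heart fibroblasts 63.9, 63.0 and 69.3 CPM. In both organs the 3 kinds of cell were fully separated, in the order iEC, fibroblast and EC. Cavin3 was 6.65-fold higher in lung iECs than in lung ECs (log2 change 2.73 ± 0.144, adjusted p = 5.32e-11) and 2.6-fold higher in heart iECs than in heart ECs (1.38 ± 0.137, adjusted p = 1.93e-07), and these changes differed by 1.35 ± 0.193 (lung minus heart, adjusted p = 4.56e-05). Over fibroblasts it rose by 0.87 ± 0.134 in lung iECs and 0.90 ± 0.135 in heart iECs, a difference of -0.03 ± 0.189 that was not called (adjusted p = 0.94). In native ECs it was lower than in fibroblasts, by -1.86 ± 0.141 in lung and -0.48 ± 0.136 in heart. The gene Gm45667, on the opposite strand, has 374 exon bases in common with Cavin3. Whether strand was used in counting is not given in the sources used here, and Gm45667 was not analysed here.

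Ehd2 (ENSMUSG00000074364; chromosome 7, 15946958 to 15967567, minus strand) differed between the organs in every kind of cell. It stood at 263, 298 and 203 CPM in lung iECs, 252, 246 and 385.5 CPM in lung ECs and 303, 318 and 347 CPM in lung fibroblasts. Heart iECs had 389.6, 370.1 and 379 CPM, heart ECs 406, 441.5 and 441.5 CPM and heart fibroblasts 409.9, 440.4 and 417 CPM. In each kind of cell all 3 lung libraries were below all 3 heart libraries. Ehd2 was lower in lung by -0.58 ± 0.145 in iECs (adjusted p = 0.00423), -0.55 ± 0.145 in ECs (adjusted p = 0.00481) and -0.39 ± 0.145 in fibroblasts (adjusted p = 0.0348). The fibroblast call was lost in 5 of the 18 fits that left out 1 library each. In the fit over all 18 libraries none of the 6 comparisons between kinds of cell within an organ was called for Ehd2, with log2 changes from -0.34 ± 0.145 in lung iECs over lung fibroblasts (adjusted p = 0.0577) to 0.03 ± 0.144 in heart ECs over heart fibroblasts. The first of these was called in 4 of the 18 fits, with -0.47 (adjusted p = 0.0181) without lung iEC replicate 2 and -0.34 without any 1 of the 3 lung EC libraries, which enter that fit through the shared spread. In edgeR fits to the compared groups alone, heart iECs were called lower in Ehd2 against heart fibroblasts (-0.16, adjusted p = 0.00264) and against heart ECs (-0.19, adjusted p = 0.0047), and in both cases the groups did not overlap.

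Plvap (ENSMUSG00000034845; chromosome 8, 71497765 to 71511752, minus strand) went the opposite way to the caveolins in iECs. It stood at 0.901, 0.215 and 0.338 CPM in lung iECs, from 19, 5 and 7 estimated counts, against 275, 281 and 288 CPM in lung ECs and 2.75, 1.25 and 1.67 CPM in lung fibroblasts. In heart it stood at 1.38, 2.38 and 2.03 CPM in iECs, from 31, 57 and 47 counts, against 158.5, 152 and 148 CPM in ECs and 23.4, 19.1 and 17.7 CPM in fibroblasts. Within each organ the 3 kinds of cell were fully separated, with ECs highest and iECs lowest. Plvap was 582-fold lower in lung iECs than in lung ECs (log2 change -9.18 ± 0.29, adjusted p = 7.12e-13) and 78.9-fold lower in heart iECs than in heart ECs (-6.30 ± 0.241, adjusted p = 5.61e-12). It was lower in iECs than in fibroblasts too, by -1.94 ± 0.393 in lung (adjusted p = 0.000628) and -3.37 ± 0.236 in heart (adjusted p = 5.86e-09). Without lung iEC replicate 1, the highest of its group, the lung changes were -2.74 over fibroblasts and -9.98 over ECs. SEs of changes that rest on so few counts may understate the error.

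Native ECs carried Plvap at 151-fold the fibroblast level in lung (log2 change 7.24 ± 0.25, adjusted p = 7.98e-13) but at 7.61-fold in heart (2.93 ± 0.192, adjusted p = 5.95e-09), a difference of 4.32 ± 0.301 (adjusted p = 1.99e-08). Lung ECs were above heart ECs by 0.88 ± 0.175, and lung fibroblasts were below heart fibroblasts by -3.44 ± 0.243. Endothelial markers moved the same way between the fibroblasts, with Cdh5, the endothelial cadherin, at 3.17 CPM in lung fibroblasts and 75.5 CPM in heart fibroblasts. Fibroblast markers in ECs differed between the organs too, at 6150 CPM in lung ECs against 39401 in lung fibroblasts, and 20373 CPM in heart ECs against 29440 in heart fibroblasts. The part of either in the Plvap difference was not tested. In iECs, Cdh5 stood at 465 CPM in lung and 555 CPM in heart, while Plvap averaged 0.485 CPM in lung and 1.93 CPM in heart. Pecam1, another endothelial marker, stood at 7.13 CPM in lung iECs and 96.3 CPM in heart iECs, against 562 CPM in lung ECs and 309.7 CPM in heart ECs. Cldn5 stood at 0.416 and 0.977 CPM in lung and heart iECs, against 54.8 and 27.8 CPM in ECs. All 8 endothelial markers were called lower in lung iECs than in lung ECs and 6 in heart (23% and 24.4% of all tested genes). Over fibroblasts, 7 were called higher in lung iECs (25.9% of all genes) and 6 in heart iECs (26%), where Cldn5 was lower (-1.74 ± 0.266). Mesothelial markers were also lower in iECs than in ECs, with 6 of 6 detected in every group and sums of 18.2 CPM in lung iECs, 312 in lung ECs and 222 in lung fibroblasts, and 4.26 in heart iECs, 356 in heart ECs and 48.7 in heart fibroblasts. Their part in the Plvap changes was not tested.

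**Figure D2:**
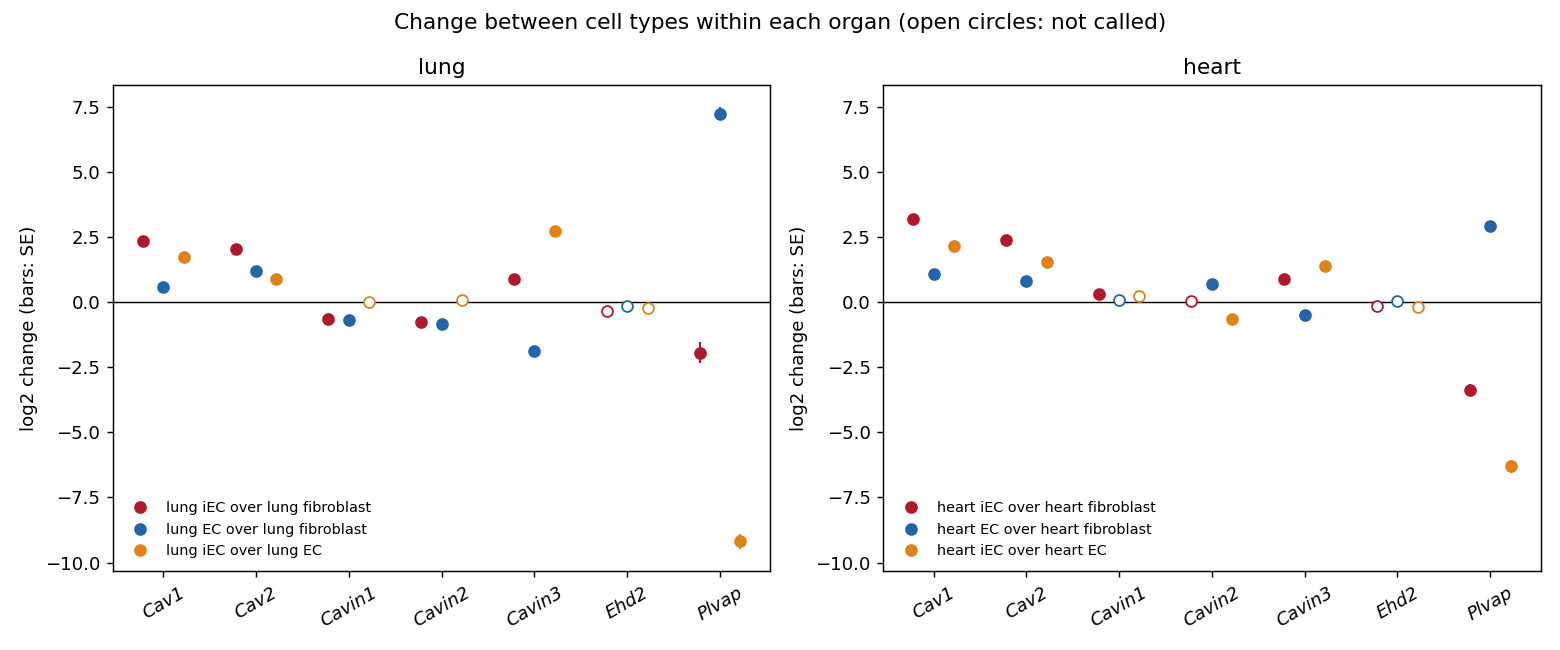
Log2 change of each gene between kinds of cell within lung (left) and heart (right), with bars for the SE of the edgeR fit and open circles where the adjusted p was not under 0.05. Cav1, Cav2 and Cavin3 lie above 0 in iECs over fibroblasts and over ECs in both organs, and Plvap lies at -9.18 and -6.30 in iECs over ECs.

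Counted together, a gene was called where its adjusted p was under 0.05. In lung iECs over lung fibroblasts, 3 of the 7 genes were higher (Cav1, Cav2 and Cavin3) and 3 lower (Cavin1, Cavin2 and Plvap), where 25.9% of all tested genes were called higher and 24.7% lower. Heart iECs over heart fibroblasts gave 4 higher, Cavin1 being the added one, and Plvap alone lower, where 26% and 24.6% of all genes were called. Lung ECs over lung fibroblasts gave 3 higher (Cav1, Cav2 and Plvap) and all 3 cavins lower, against 29.3% and 28.7% of all genes. Heart ECs over heart fibroblasts gave 4 higher, with Cavin2 among them, and Cavin3 alone lower, against 24.2% and 23.3%. These contrasts use the same fibroblast libraries within an organ, so their likeness is not independent.

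Set directly against native ECs, lung iECs had 3 genes higher (Cav1, Cav2 and Cavin3) and Plvap alone lower, where 22.2% of all tested genes were called higher and 23% lower. Heart iECs against heart ECs had the same 3 higher and both Plvap and Cavin2 lower, against 24.5% and 24.4% of all genes. The median log2 change of the 7 genes was 0.08 in lung and 0.23 in heart, beside -0.01 and 0.01 over all tested genes.

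The proportions of the caveola transcripts differed between the groups. On a scale of CPM per kilobase of exon, which allows genes to be compared, Cavin1 stood at 0.313 of Cav1 in lung iECs, 1.05 in lung ECs and 2.49 in lung fibroblasts. The same ratio was 0.621 in heart iECs, 2.34 in heart ECs and 4.63 in heart fibroblasts. Ehd2 stood at 0.175 of Cav1 in lung iECs, 0.685 in lung ECs and 1.13 in lung fibroblasts, and at 0.371 in heart iECs, 1.85 in heart ECs and 3.82 in heart fibroblasts. Cav1 was thus the most abundant of the 7 transcripts per kilobase in both iECs, at 282 ± 30.4 in lung and 200.1 ± 9.38 in heart (SD, n = 3). In lung ECs the most abundant was Plvap, at 141.5 ± 3.40, and in lung fibroblasts Cavin1, at 139 ± 10.6. In heart, Cavin1 led in ECs at 106 ± 4.62 and in fibroblasts at 100.1 ± 1.60. Cav2 kept closer to Cav1, at ratios from 0.161 in lung iECs to 0.421 in heart fibroblasts. Plvap was at 0.000722 of Cav1 in lung iECs and 0.00473 in heart iECs, against 1.72 in lung ECs and 1.7 in heart ECs. These ratios describe the libraries and were not tested as such.

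**Figure D3:**
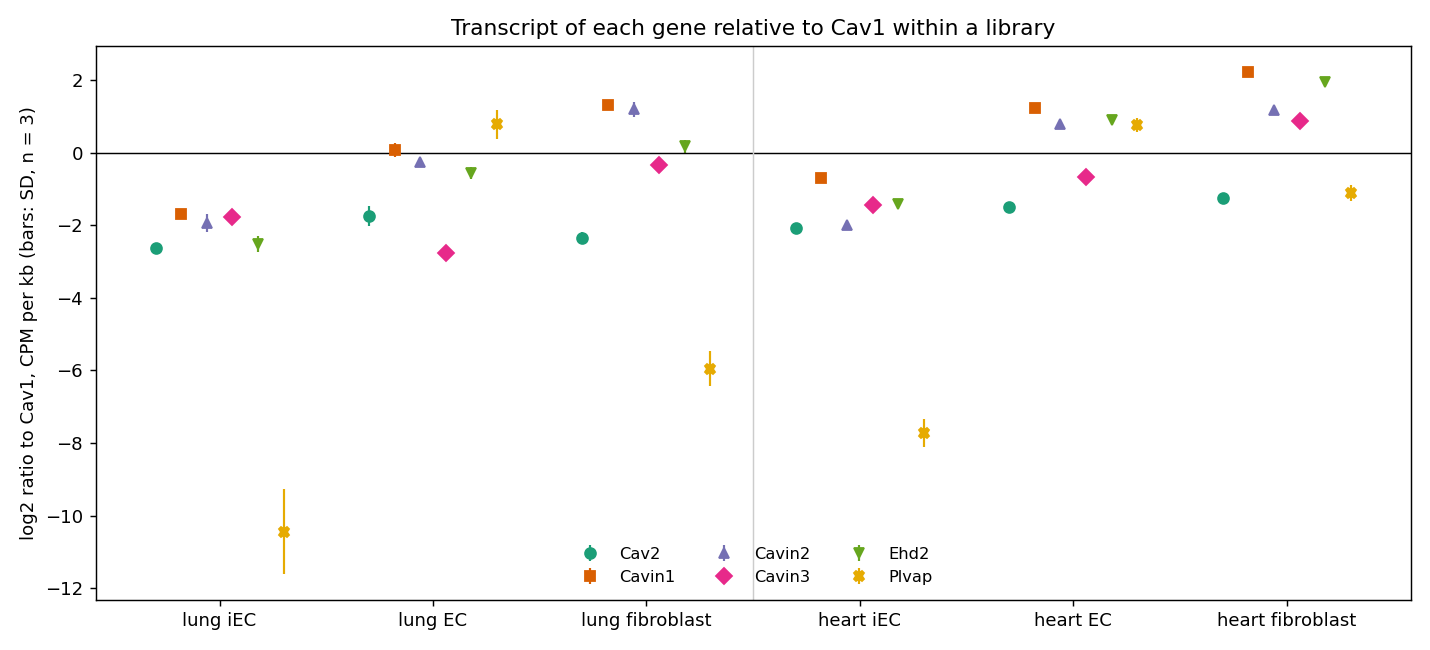
Log2 ratio of each gene to Cav1 within a library, on CPM per kilobase, as the mean and SD of 3 libraries per group. All 6 genes lie below Cav1 in both kinds of iEC, and Cavin1 lies above it in heart ECs and in the fibroblasts of both organs.

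Between organs, the genes of the caveola differed in fibroblasts and ECs as well as in iECs. In lung iECs over heart iECs, Cav1 (0.50 ± 0.152) and Cavin2 (0.57 ± 0.194) were called higher and Cavin1 (-0.49 ± 0.117), Ehd2 and Plvap (-2.01 ± 0.382) lower, where 18.9% of all tested genes were called in each direction. The Cav1 call was lost in 3 and the Cavin2 call in 5 of the 18 fits that left out 1 library each, with Cav1 at 0.40 and Cavin2 at 0.36 without lung iEC replicate 2. Without lung iEC replicate 1 the Plvap change was -2.80. In lung ECs over heart ECs, Cav1 (0.89 ± 0.153), Cav2 and Plvap were higher and Cavin3 (-1.20 ± 0.14) and Ehd2 lower, against 24.2% and 23.7% of all genes. In lung fibroblasts over heart fibroblasts, Cav1 (1.38 ± 0.156), Cav2 (0.26 ± 0.106), Cavin1 (0.48 ± 0.117) and Cavin2 (1.39 ± 0.196) were higher and Ehd2 and Plvap lower, against 24.6% and 23.9%. The Cav2 call between fibroblasts was lost in 11 of the 18 fits, with values of 0.21 to 0.32. Cav1 was the gene called higher in lung in all 3 kinds of cell, and Ehd2 the gene called lower in all 3. Plvap was higher in lung among ECs and lower in lung among iECs and fibroblasts. Macrophage markers were also far higher in lung ECs than in heart ECs, at 8300 against 260 CPM. Epithelial markers summed to 121 CPM in lung ECs, against 7.42 in heart ECs and 14.6 in lung iECs. Krt18, Cdh1 and Epcam carried the lung EC sum, at 55.5, 45.3 and 17.2 CPM. Ager went the other way, at 11.6 CPM in lung iECs and 0.719 in lung ECs. The part of either set of markers in these differences was not tested.

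Tests of the difference between organs, lung minus heart, called 3 genes lower for iECs over fibroblasts and none higher: Cav1 (-0.88 ± 0.216, adjusted p = 0.00596), Cavin1 and Cavin2 (-0.82 ± 0.273, adjusted p = 0.0388). Among all tested genes 12.6% were called in each direction. The Cavin2 call was lost in 11 of the 18 fits that left out 1 library each, with values of -1.03 to -0.66. For Plvap the difference was 1.43 ± 0.514 and was not called (adjusted p = 0.053), with 0.64 without lung iEC replicate 1, and calls at 1.81 without lung iEC replicate 2, 1.77 without lung fibroblast replicate 1 and 1.61 without heart iEC replicate 2. It was also called by DESeq2 (1.45, adjusted p = 0.00069), with RLE scaling in edgeR (1.46, adjusted p = 0.0483), with a filter of 5 CPM (1.44, adjusted p = 0.0446) and without the 3 lung libraries that stand apart (1.95, adjusted p = 0.0292). The last of these runs was chosen after seeing the data. For ECs over fibroblasts, Plvap was called higher and Cavin1 (-0.76 ± 0.165), Cavin2 and Cavin3 (-1.38 ± 0.194) lower, against 16.2% and 18.3% of all genes. For iECs over ECs, Cavin3 was called higher and Cav2 and Plvap (-2.88 ± 0.417, adjusted p = 8.66e-05) lower, against 13.8% and 12.2%. The Plvap difference was -3.68 without lung iEC replicate 1.

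**Figure D4:**
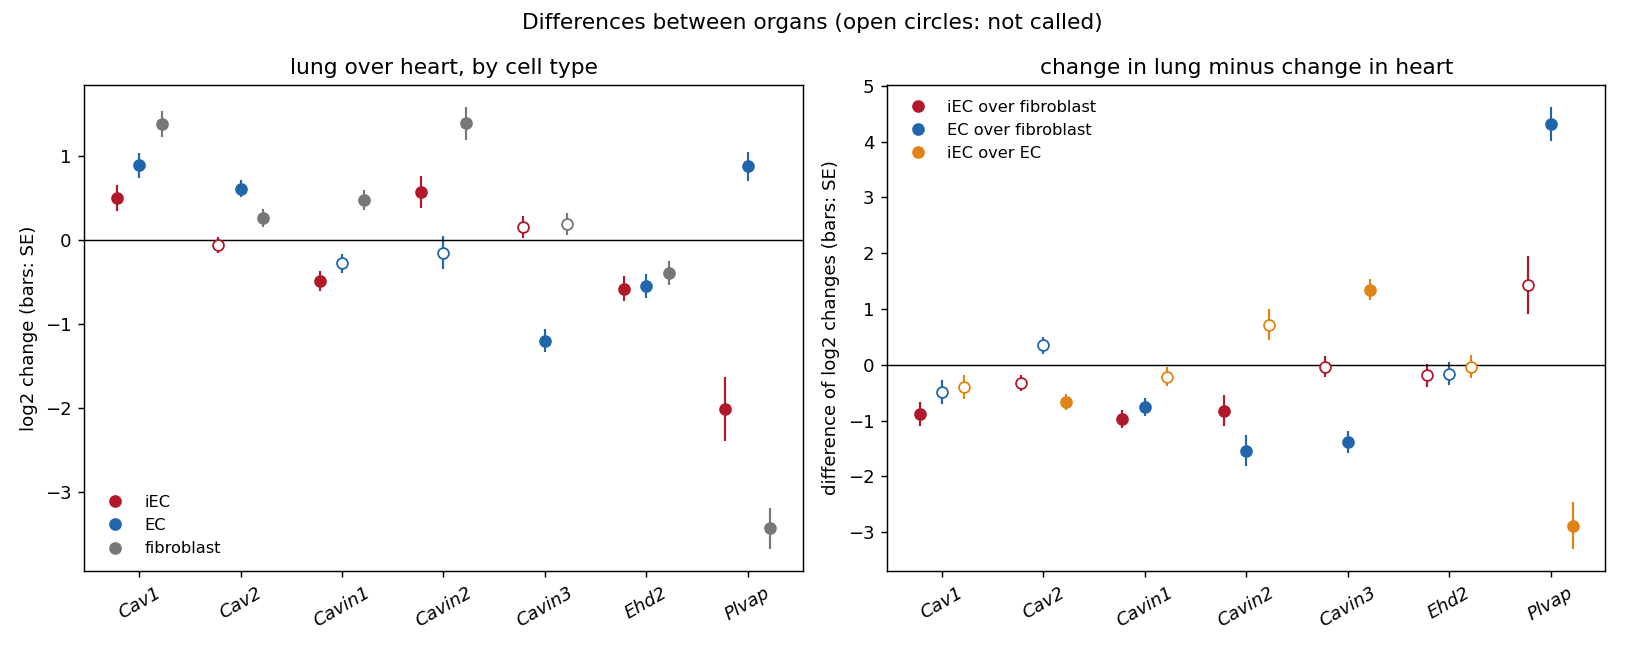
Left, log2 change of lung over heart for each gene in iECs, ECs and fibroblasts. Right, the difference between organs of each change between kinds of cell, lung minus heart; bars are SEs and open circles mark genes that were not called. Ehd2 lies below 0 in all 3 kinds of cell on the left, and Plvap has the widest differences in both panels, up to 4.32 on the right.

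Several lung values rest on lung EC replicate 3. It was the highest of its group in all 7 genes. In Cav2 it was close to replicate 1 (89.0 against 88.2 CPM), and in Plvap to both others (288 against 275 and 281 CPM). It had the lowest macrophage sum of that group (6987 CPM, against 8604 and 9309) with the highest smooth muscle and pericyte sum (2227 CPM, against 1673 and 1443). The part of these markers in its caveola genes was not tested. Without this library, Cavin1 and Cavin2 were both called lower in lung ECs than in heart ECs, at -0.48 (adjusted p = 0.000256 for Cavin1 and 0.0104 for Cavin2), and Ehd2 was called lower in lung ECs than in lung fibroblasts, at -0.37 (adjusted p = 0.00907). When the 3 lung libraries that stand apart were left out together, all 7 genes were called between lung iECs and lung ECs, in place of 4, with Cavin1 at 0.30, Cavin2 at 0.57 and Ehd2 at 0.17. With all libraries, 22.2% of all tested genes were called higher in that contrast and 23% lower. Without the 3, these numbers of genes moved by no more than 1.5 times. The SE of the Cavin1 change was then 0.0644 in place of 0.117. That run was chosen after seeing the data. It drops the library farthest from the rest of each lung group, a choice that itself favours a smaller spread and more calls. Plvap was even in lung ECs, at 275 to 288 CPM in all 3 libraries.

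The 7 genes differed in how alike their patterns were. The root mean square difference of centred log2 CPM over the 18 libraries was 0.304 between Cavin1 and Ehd2, 0.446 between Cavin1 and Cavin2 and 0.494 between Cav1 and Cav2, but 1.32 between Cav1 and Cavin1. Cavin1 and Ehd2 varied little (SD 0.288 and 0.337), and their distance is about as large as that spread. Cavin3 stood 0.867 from Cavin1, the nearest to it. Plvap stood 3.33 from Ehd2, the nearest to it, and 4.27 from Cavin3, the farthest. In a search of 13838 named genes, the 7 included, those closest to Cav1 were Lpar4 (0.338), Tmem47 and Arhgap28, and those closest to Cav2 were Crim1 (0.263), Col18a1 and Rhob. Closest to Cavin1 were Dok1 (0.165), Disp1 and Lrrc45, to Cavin2 Nptxr (0.176), Ank3 and Rras2, to Cavin3 Csad (0.286), Slc4a3 and Prdx4, and to Ehd2 Myo1c (0.124), Man1c1 and March8. Closest to Plvap were Mmrn1 (0.659), Gimap5 (0.866) and Gimap4 (0.883). The measure grows with a gene's own spread, which was 3.52 for Plvap (SD of log2 CPM over the 18 libraries), 1.31 for Cav1 and 0.288 for Cavin1, so these distances do not rank the members by how well they were matched.

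Partners of the caveola, not all of them in its neck or coat, were followed as a list of 12 genes, 11 of them tested. In lung iECs over lung fibroblasts 5 were called higher and 3 lower, and in heart iECs 5 higher and 4 lower, with medians of 0.37 and 0.45 beside 0.00 and 0.02 over all tested genes. Of all tested genes, 25.9% and 24.7% were called in lung and 26% and 24.6% in heart, so that the 3 lower in lung are close to the background. Ehd4 and Ehd3, relatives of Ehd2, were higher in lung iECs by 1.40 ± 0.0882 and 1.47 ± 0.101 and in heart iECs by 1.10 ± 0.0871 and 0.93 ± 0.0973, whereas Ehd2 was not called. Filamin A, an actin crosslinker that ties caveolae to stress fibres, rose as Flna by 0.84 ± 0.0892 in lung iECs and 0.52 ± 0.0889 in heart iECs. Lower in both were Ror1 (-2.30 ± 0.22 in lung and -0.71 ± 0.208 in heart), Dnm2, a dynamin that cuts vesicles from the membrane (-0.23 ± 0.0577 and -0.46 ± 0.0577), and the muscle caveolin Cav3, which was near the floor of detection at 0.396 CPM in lung iECs and 0.962 CPM in lung fibroblasts. Against native ECs the EHD genes split: Ehd3 was higher in iECs, by 1.25 ± 0.0992 in lung and 0.72 ± 0.0967 in heart, and Ehd4 lower, by -0.99 ± 0.0859 and -0.54 ± 0.0853. Pacsin2, whose F-BAR protein bends the caveola neck, was lower in iECs than in ECs in both organs, by -0.67 ± 0.0693 and -0.47 ± 0.0692.

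The flotillins, which mark membrane domains without caveolins, went the other way from Cav1 in iECs over fibroblasts. Flot1 was lower in iECs than in fibroblasts by -1.25 ± 0.142 in lung and -1.07 ± 0.142 in heart, and Flot2 by -1.03 ± 0.0639 and -0.74 ± 0.0635. Of the 4 flotillin and stomatin genes, 2 were called lower in lung iECs and 3 in heart iECs, and none higher, where 24.7% and 24.6% of all tested genes were called lower. Native ECs were below fibroblasts in mean Flot1 as well, at 54.4 against 191 CPM in lung and 99.9 against 182 in heart. Lung iECs, at 80.3 CPM, stood above lung ECs in mean Flot1. Genes of the clathrin coat, the other main route of endocytosis, were mixed: of 13 tested, 6 were higher and 3 lower in lung iECs over fibroblasts, where 25.9% and 24.7% of all tested genes were called, and 5 higher and 3 lower in heart iECs, against 26% and 24.6%. The 3 lower in each organ are close to that background. Cltb, a clathrin light chain, rose by 1.03 ± 0.122 in lung iECs and 1.05 ± 0.122 in heart iECs, and Dab2, a cargo adaptor, was lower by -0.67 ± 0.084 and -1.20 ± 0.0855.

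Genes of transcytosis and permeability went in both directions. Of 13 tested, 8 were higher and 4 lower in lung iECs over lung fibroblasts (25.9% and 24.7% of all tested genes), and 5 higher and 7 lower in heart iECs (26% and 24.6%). Kdr, the VEGF receptor, rose by 5.03 ± 0.145 in lung iECs and 4.43 ± 0.142 in heart iECs, and also stood above native ECs by 1.80 ± 0.122 and 2.03 ± 0.124. Mfsd2a, a lipid transporter that restrains caveolar transcytosis in brain endothelium, rose by 3.63 ± 0.258 and 2.61 ± 0.207 over fibroblasts. Gpihbp1, which carries lipoprotein lipase across capillary endothelium, was lowest in iECs in both organs: it averaged 0.0778 CPM in lung iECs, 17.9 in lung ECs and 0.340 in lung fibroblasts, and 0.142 in heart iECs, 9.52 in heart ECs and 3.78 in heart fibroblasts. Nos3, the endothelial nitric oxide synthase that caveolin 1 binds, was lower in iECs than in ECs by -4.40 ± 0.362 in lung (adjusted p = 1.66e-08) and -4.96 ± 0.341 in heart (adjusted p = 1.24e-09). Other genes of the list were mixed, such as the water channel Aqp1, which in heart iECs was above fibroblasts (3.19 ± 0.284) and below ECs (-0.70 ± 0.249), and Acvrl1, a receptor for BMP9, which over fibroblasts was higher in lung iECs (1.03 ± 0.0617) and lower in heart iECs (-0.27 ± 0.0608).

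Of 11 tested factors and targets of the TEAD and YAP pathway, which responds to mechanical load, 6 were higher and 3 lower in lung iECs over fibroblasts (25.9% and 24.7% of all tested genes), and 4 higher and 2 lower in heart iECs (26% and 24.6%). Apart from the 6 higher in lung, these counts are close to the background. Ccn1, a target, rose in both, by 1.06 ± 0.0824 in lung and 1.50 ± 0.0832 in heart. Axl, another target, was lower in both, by -0.80 ± 0.0789 and -1.18 ± 0.0795. In lung, mean Ankrd1 was 123 CPM in iECs against 47.5 in fibroblasts, and mean Ccn2 954 against 412. In heart these were 177 against 122 for Ankrd1 and 1269 against 1170 for Ccn2. Ajuba was at 31.5 against 17.9 CPM in lung and 41.8 against 15.8 in heart. Amotl2 was lower in iECs, at 299 against 496 and 407 against 517. Tead4, at low levels, was at 1.86 against 4.55 in lung and 3.31 against 3.18 in heart. Yap1 itself was not called, at 0.03 ± 0.0582 in lung and -0.03 ± 0.0581 in heart.

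**Figure D5:**
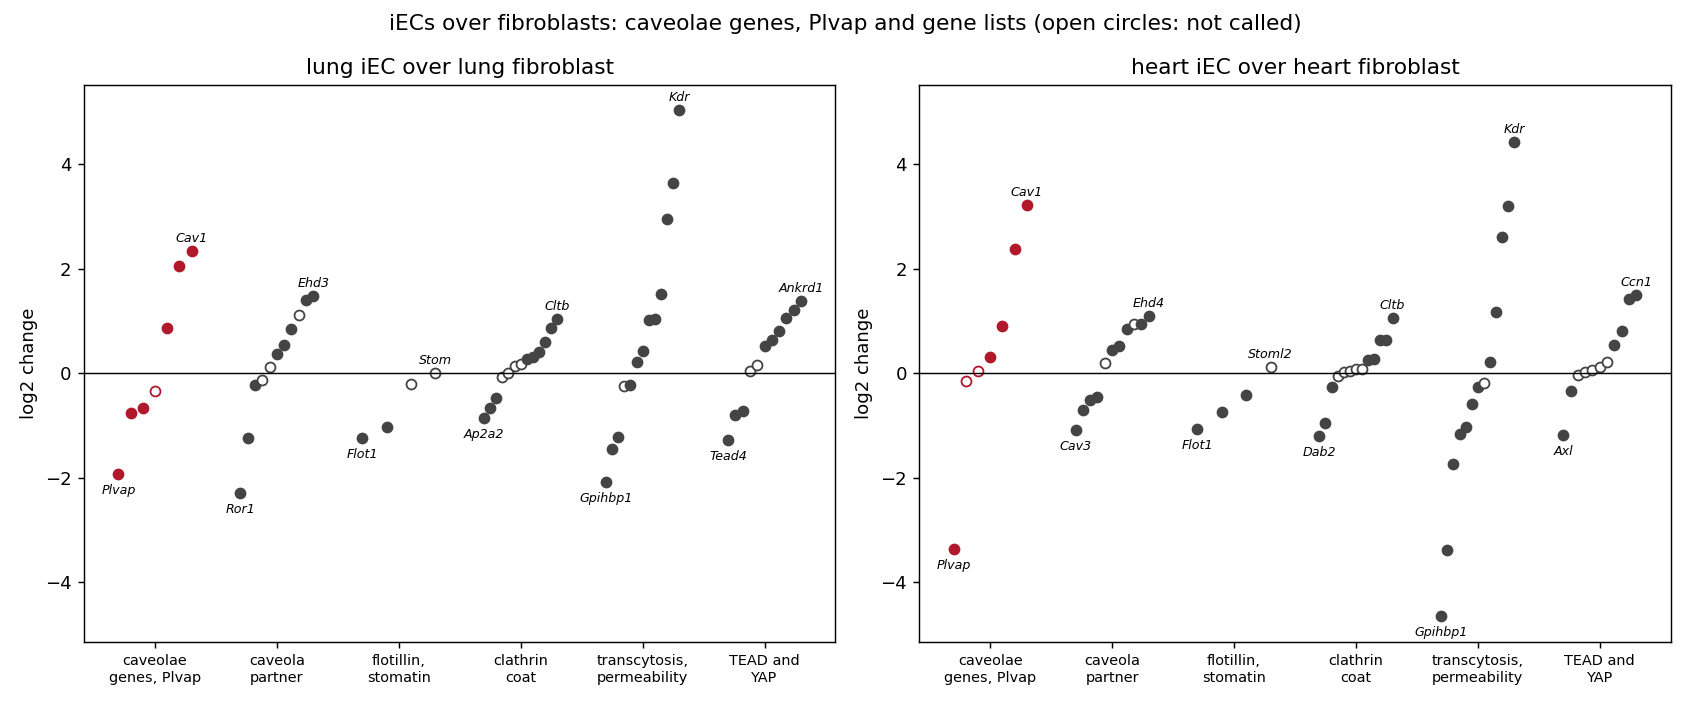
Log2 change in iECs over fibroblasts of lung (left) and heart (right) for the 7 genes (red) and for the genes of 5 lists (grey), 1 point per gene, with open circles where a gene was not called and the lowest and highest gene of each list named. Cav1 at 2.33 and 3.21 and Plvap at -1.94 and -3.37 are the ends of the red points, and Kdr and Gpihbp1 are the ends of the transcytosis and permeability list in both organs.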

How the data were processed

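The authors deposited 1 table of estimated counts per gene for all 18 libraries, in whole numbers and without scaling. Salmon, DESeq2 and the mm10 build are named, without versions, per the submitters' processing notes, and how transcripts were summed to genes is not given in the sources used here. The 7 genes and all gene lists were chosen with earlier results of these data known. All 7 genes are described. Of the lists, at least the called genes with the largest changes were to be named, and of similar genes the 3 nearest each member.

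Counts were fitted in R 4.3.3 with edgeR 4.0.16 (filterByExpr, TMM scaling, robust quasi-likelihood, 1 coefficient per group, 12 residual degrees of freedom, common biological coefficient of variation 0.135), with Benjamini-Hochberg adjustment in each of 12 contrasts and a threshold of 0.05. SEs were obtained from the log2 change and its F statistic, as |log2 change| over √F. CPM uses TMM-scaled library sizes, and CPM per kilobase divides it by merged exon length (1662 to 5119 bases). Similar patterns were sought in log2 CPM with a prior count of 2. Alternatives were DESeq2 1.42.0, RLE scaling, other filters, fits to the compared groups alone, a replicate block and each library left out. All columns were used, and totals of 17747632 to 23775372 counts per library make 1 count worth 0.0563 CPM at most, on unscaled totals.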

Additional observations from a re-analysis of the deposited data

Results flagged for a closer look

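In all, 10 changes between kinds of cell differed between lung and heart by a test of the difference itself in edgeR (lung minus heart, adjusted p under 0.05). For iECs over fibroblasts these were Cav1 (-0.88 ± 0.216, adjusted p = 0.00596), Cavin1 (-0.97 ± 0.165, adjusted p = 0.000253) and Cavin2 (-0.82 ± 0.273, adjusted p = 0.0388). For ECs over fibroblasts they were Cavin1 (-0.76 ± 0.165), Cavin2 (-1.54 ± 0.274), Cavin3 (-1.38 ± 0.194) and Plvap (4.32 ± 0.301), with adjusted p from 1.99e-08 to 0.00144. For iECs over ECs they were Cav2 (-0.67 ± 0.144, adjusted p = 0.00183), Cavin3 (1.35 ± 0.193, adjusted p = 4.56e-05) and Plvap (-2.88 ± 0.417, adjusted p = 8.66e-05), the last being -3.68 without lung iEC replicate 1. Of all tested genes, 12.6% were called in each direction for iECs over fibroblasts. For ECs over fibroblasts 16.2% were called higher and 18.3% lower, and for iECs over ECs 13.8% and 12.2%. The sets over fibroblasts use the same fibroblast libraries, and no set is independent of the others.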

How the results depend on the processing

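Depending on the contrast, 12.6% to 29.3% of all tested genes were called higher and 12.2% to 28.7% lower. Of 84 changes of the 7 genes over 12 contrasts, 57 were called, 51 of them in every fit that left out 1 library, and none of the 57 changed sign in any alternative run. The 6 calls lost in some such fits were Cavin1 in heart iECs over heart fibroblasts, Cav1 and Cavin2 in lung iECs over heart iECs, Cav2 and Ehd2 in lung over heart fibroblasts, and the Cavin2 difference between organs for iECs over fibroblasts. The number of genes called in lung iECs over heart iECs ranged from 3 to 5. Uncalled changes that changed sign in those fits ranged, in lung iECs over lung ECs, from -0.08 to 0.21 for Cavin1, from -0.13 to 0.40 for Cavin2 and from -0.34 to 0.03 for Ehd2. Cavin2 in lung ECs over heart ECs ranged from -0.48 to 0.03, and, lung minus heart, Cavin3 for iECs over fibroblasts from -0.13 to 0.12 and Ehd2 for iECs over ECs from -0.16 to 0.21. With no filter beyond 1 count that Cavin3 difference was 0.01.

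Leaving out the 3 lung libraries that stand apart was chosen after seeing the data. Genes called were then 7 in place of 4 for lung iECs over lung ECs and 5 in place of 3 for the organ difference of iECs over ECs. With all libraries, 22.2% of all tested genes were called higher and 23% lower in the first, and 13.8% and 12.2% in the second. Without the 3, the numbers of all tested genes called in each direction moved by no more than 1.5 times. Lung ECs over heart ECs gave 7 genes in place of 5 (with all libraries, 24.2% and 23.7% of all genes). The organ difference of ECs over fibroblasts gave 6 in place of 4 (16.2% and 18.3%). Heart iECs over heart ECs gave 7 in place of 5 (24.5% and 24.4%) with no heart library left out. There Cavin1 stayed at 0.23, with an SE of 0.0524 in place of 0.116. Lung over heart fibroblasts gave 5 in place of 6 (24.6% and 23.9%). Signs turned for Ehd2 in lung iECs over lung ECs (0.17) and, lung minus heart, for Cavin1 (0.07) and Ehd2 (0.35) of iECs over ECs and Cavin3 (0.06) of iECs over fibroblasts. The cause was not tested. Replicate numbers did not pair the samples: deviations of same-numbered libraries correlated at a mean of -0.0108 over 45 pairs, and 4 of 18 libraries correlated best with their own number. With a replicate block no number of called genes moved by over 1.5 times, and Cav2 in lung over heart fibroblasts (0.27, adjusted p = 0.0616) and the Cavin2 organ difference of iECs over fibroblasts (-0.81, adjusted p = 0.0534) were no longer called. The same Cav2 change was also lost in DESeq2 (adjusted p = 0.0628), with RLE scaling (0.0586) and with no filter beyond 1 count (0.0798), and the same Cavin2 difference with RLE scaling (-0.79, adjusted p = 0.0507) and with no such filter (-0.77, adjusted p = 0.11). Cavin2 in lung iECs over heart iECs was lost with no such filter (0.59, adjusted p = 0.0582) and in the fit to the compared groups alone (0.60, adjusted p = 0.0506). DESeq2 called the Cavin2 organ difference of iECs over ECs (0.73, adjusted p = 0.0264), which edgeR did not (0.72, adjusted p = 0.0638). CPM on library totals gave levels of 0.89 to 1.1 times those printed. Plvap in iECs rests on 5 to 57 counts per library, which limits its precision.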
